A study of Homo sapiens with 16 samples.

Results

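Integrins are described here through 10 genes in pancreatic progenitors treated with latrunculin B. The genes encode 6 alpha subunits (ITGA1, ITGA2, ITGA3, ITGA5, ITGA6 and ITGAV) and 4 beta subunits (ITGB1, ITGB4, ITGB5 and ITGB8). They were taken by name from 35810 genes, and all 10 were among the 16705 genes that passed the filter on low counts and were tested. For ITGA6 the share of its transcripts was also followed.

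The cells were pancreatic progenitors made in culture from SA121, a human embryonic stem cell line, and every group carried the same NGN3-GFP reporter, in which a fluorescent protein marks expression of the endocrine gene NEUROG3. On day 19 of differentiation they received latrunculin B (LatB), a drug that depolymerises actin, at 0.5 µM. The controls were control 0 h (3 libraries) and control 24 h in the vehicle DMSO (2 libraries). LatB was given for 3, 6 or 24 h, with 3 libraries each, or for 12 h, with 2 libraries. Control 0 h bears a DMSO tag in its labels, while the series text has it harvested before treatment, so whether it saw vehicle is not certain. Replicates are not stated to be separate cultures, so p-values measure the spread between these libraries, which may be technical. The progenitor list of 8 marker genes, among them PDX1, NKX6-1 and SOX9, summed to 1283 to 2411 TPM per library, and the list of 2 pluripotency markers to 0.978 to 2.28 TPM.

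Each integrin is a pair of an alpha and a beta subunit that spans the membrane. The outer part binds matrix proteins, and the short tail inside the cell recruits talin, kindlin and other adaptors that connect it to actin. The alpha subunit largely sets the ligand: the pairs with integrin alpha 3 or alpha 6 bind laminins of the basement membrane, those with alpha 1 or alpha 2 bind collagens, and those with alpha 5 or alpha V bind fibronectin, vitronectin and other proteins that carry the RGD motif. ITGB1 encodes the common partner of most of these alpha subunits, ITGB4 the beta subunit of hemidesmosomes, and ITGB5 and ITGB8 partners of alpha V.

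The libraries held between 23609727 and 33515398 estimated reads. Levels are given as CPM (reads of a gene scaled to a common library size, with TMM factors), differences as log2 fold changes of counts from edgeR with their standard error (SE), and a gene is said to have risen or fallen where the adjusted p was under 0.05. Levels of different genes are compared in TPM, which takes transcript length into account. LatB at 3, 6 and 12 h was compared with control 0 h, whose libraries those comparisons share, and LatB at 24 h with control 24 h. No control was harvested at 3, 6 or 12 h. At those times the drug cannot be told apart from elapsed time or from the addition of vehicle. Rose, fell and effect name there only the difference from control 0 h. RNA came from whole cultures, so fewer cells of a type and less RNA per cell cannot be told apart. The LatB 12 h libraries stood apart from each other: across genes their log2 CPM correlated at 0.967, against 0.98 to 0.986 for the other pairs within a group. Of 7 mesenchyme markers none was at 0 throughout the 16 libraries, and 1 had a mean under 1 TPM. Their summed level was 61.7 TPM in the lower and 373 TPM in the higher of the 12 h libraries, and 25.7 to 87.2 TPM in the other groups.

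ITGB1 had the highest level of the 10 genes by TPM in every group. At 0 h its mean was 642 ± 51.0 TPM (SD, n = 3), followed by ITGB5 at 118 TPM, ITGAV at 73.8 TPM and ITGA6 at 64.8 TPM. ITGA1, ITGA3, ITGA5 and ITGB8 lay between 15.8 and 22.0 TPM, where ITGA1 overlapped ITGA3 and ITGA3 overlapped ITGA5 between libraries. ITGA2 at 2.95 TPM and ITGB4 at 2.37 TPM were lowest. The order changed with LatB through ITGA6. Its TPM was above that of ITGAV in 0 of 5 control libraries and in 11 of 11 LatB libraries, and above that of ITGB5 in 0 of 5 control libraries, in 0 of 3 libraries at 3 h and in 8 of 8 at 6, 12 and 24 h. At 24 h of LatB the means were 499 TPM for ITGB1, 109 TPM for ITGA6, 78.8 TPM for ITGB5 and 51.4 TPM for ITGAV.

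**Figure D1:**
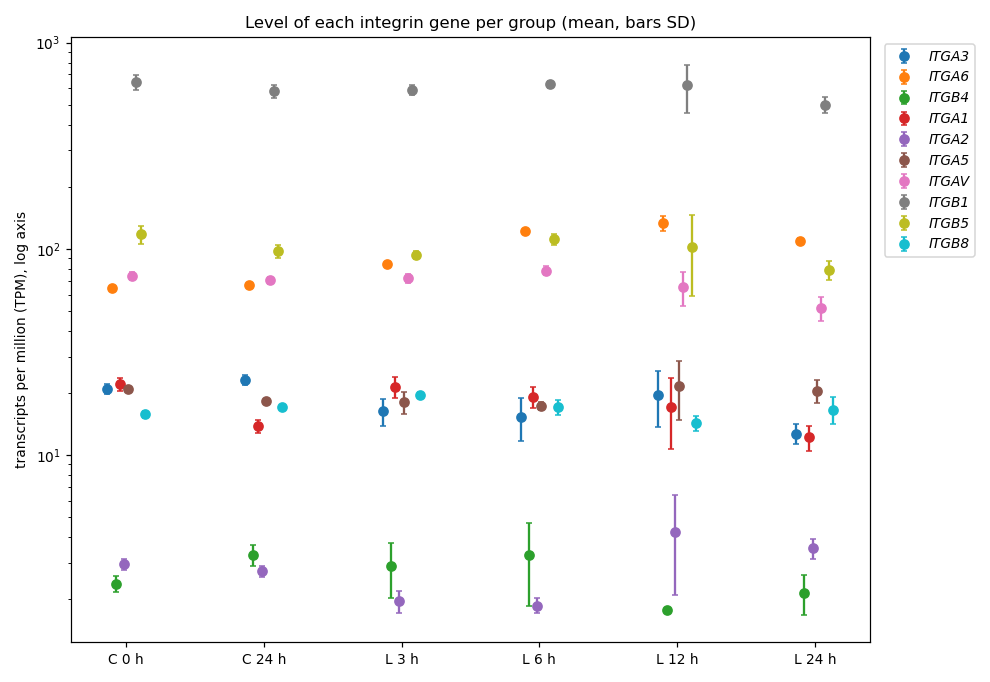
Mean level of each of the 10 integrin genes in TPM (log axis) in the 6 groups, each marker being a group mean with its SD as a bar. ITGB1 is highest in every group, and ITGA6 moves from below ITGAV in both control groups to above ITGB5 at 6, 12 and 24 h of LatB.

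The first question was how many of the 10 genes were called against control at each time. At 3 h, 2 rose (ITGA6 and ITGB8) and 1 fell (ITGA2), 3 of 10 where 31.6% of all genes tested were called by edgeR (16.8% higher and 14.7% lower). At 6 h, 1 rose (ITGA6) and 2 fell (ITGA2 and ITGB4), where 43.3% of all genes were called (22.9% higher and 20.4% lower). At 12 h, 1 rose (ITGA6) and 3 fell (ITGA1, ITGB4 and ITGB5), where 35.8% were called (19.1% higher and 16.8% lower). At 24 h, 1 rose (ITGA6) and 6 fell (ITGA1, ITGA3, ITGAV, ITGB1, ITGB4 and ITGB5), 7 of 10 beside 40.8% of all genes (21.9% higher and 18.8% lower). The median log2 fold change of the 10 genes was -0.044 at 3 h, -0.14 at 6 h, -0.13 at 12 h and -0.30 at 24 h, and that of all genes tested was 0.0021, -0.010, 0.011 and 0.0081 at these times. The 24 h count depended on the scale: 3 of the 7 (ITGA3, ITGA6 and ITGAV) were called with an offset for transcript length or with limma on log2(TPM + 1). Of all 16705 genes 5097 were called at 24 h with that offset and 4799 with limma.

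**Figure D2:**
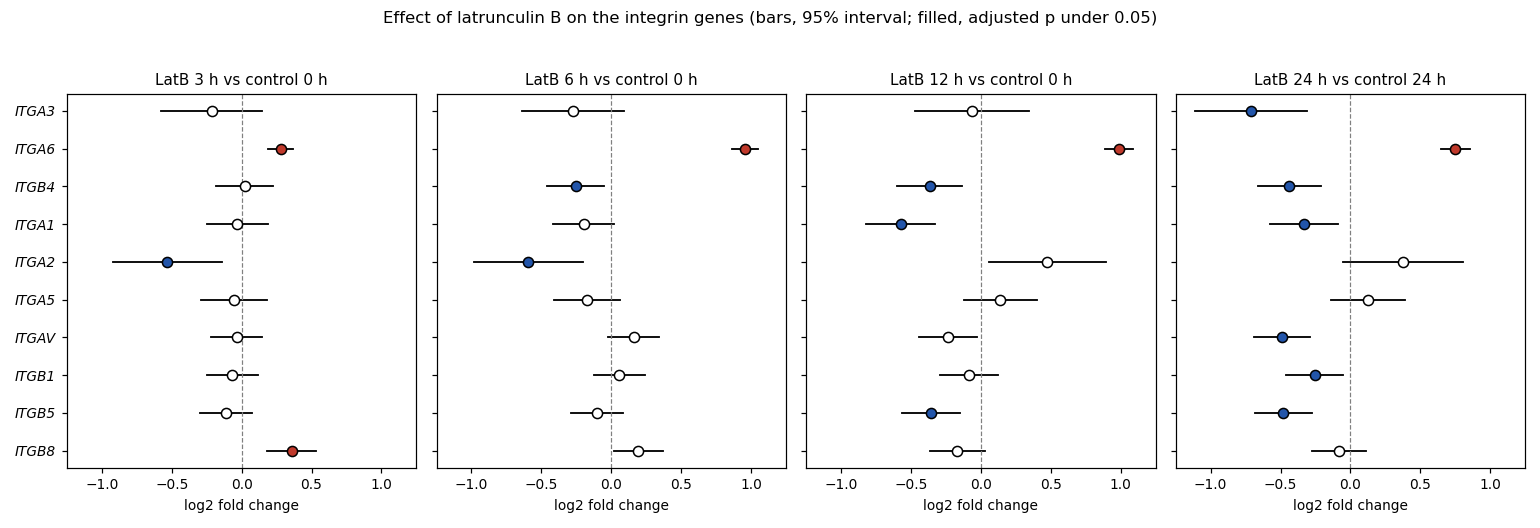
Log2 fold change of each integrin gene by edgeR at 3, 6 and 12 h against control 0 h and at 24 h against control 24 h, with 95% confidence intervals as bars. Filled points have an adjusted p under 0.05. ITGA6 is filled above 0 at all 4 times, and 6 genes are filled below 0 at 24 h.

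ITGA6 (chr2:172427354-172506459, GRCh38, plus strand) encodes integrin alpha 6, which pairs with beta 1 or beta 4 into laminin receptors. It was at 216, 197 and 210.3 CPM in control 0 h and at 196 and 205 CPM in control 24 h. With LatB it was at 252, 261 and 245 CPM after 3 h, at 399, 402 and 410.2 CPM after 6 h, at 409.8 and 416 CPM after 12 h, and at 338, 339.9 and 334 CPM after 24 h. Every LatB library was above every control library, and the libraries of 6 and 12 h were above those of 3 h and 24 h. Against control it rose by 0.28 on the log2 scale after 3 h (interval 0.19 to 0.37, edgeR adjusted p 0.000199) and by 0.96 after 6 h (interval 0.87 to 1.05, edgeR adjusted p 6.58e-09). The rise was 0.99 after 12 h (interval 0.89 to 1.09, edgeR adjusted p 2.15e-08) and 0.75 after 24 h (interval 0.65 to 0.85, edgeR adjusted p 3.41e-07). This was a fold of 1.94 at 6 h, 1.99 at 12 h and 1.68 at 24 h.

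Most of the rise of ITGA6 came between 3 h and 6 h. The direct comparison of LatB 6 h with LatB 3 h gave 0.68 (SE 0.04, edgeR adjusted p 1.29e-06), and ITGA6 was the 1 member called there, where 22.2% of all genes were. Between 6 h and 24 h of LatB it fell by 0.26 (SE 0.04, edgeR adjusted p 0.000297). Control 24 h did not differ detectably from control 0 h (-0.05, interval -0.15 to 0.05). The 7 called values of ITGA6 kept their call and direction in all 130 alternative fits, which included leaving out each library in turn.

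**Figure D3:**
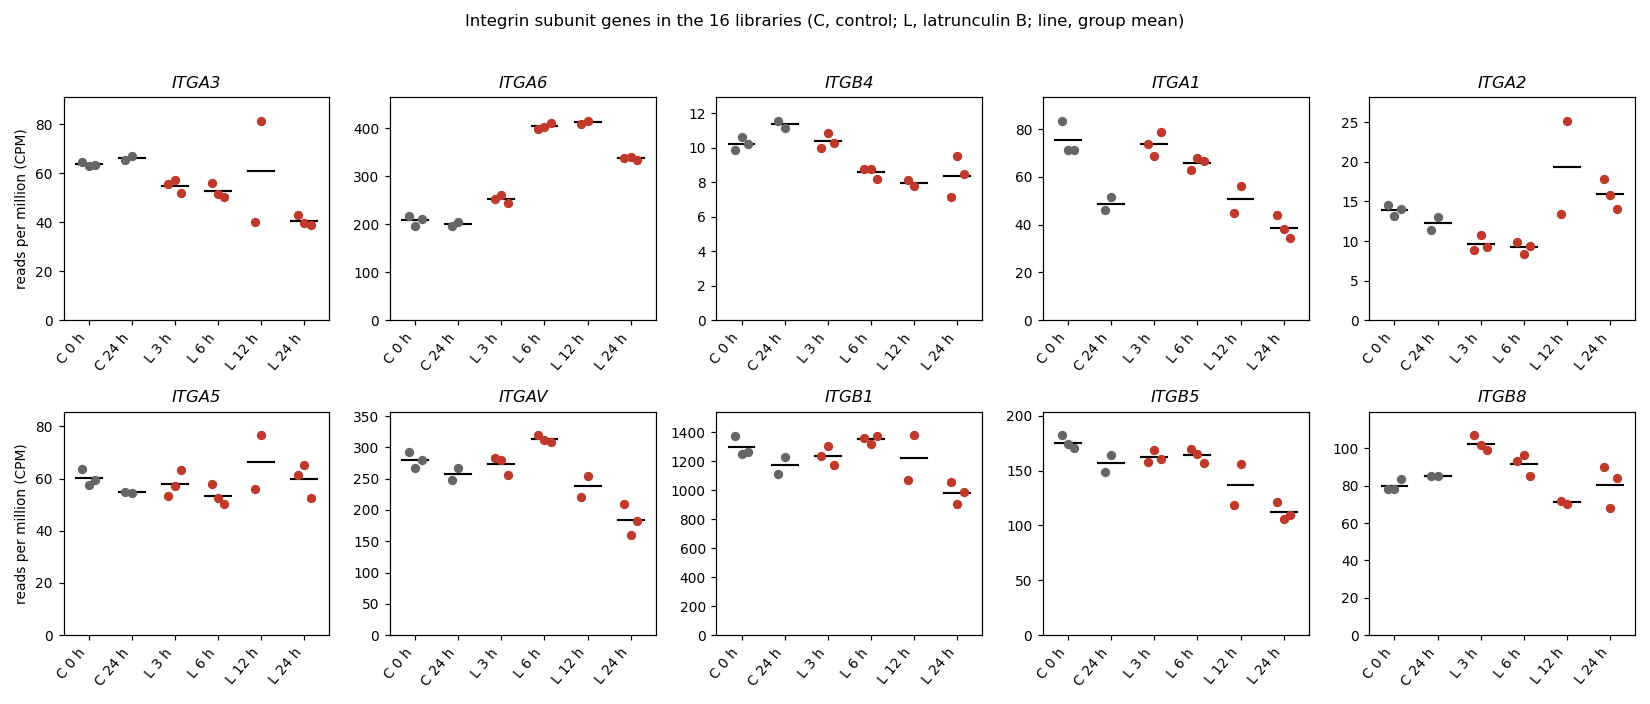
CPM of each of the 10 integrin genes in all 16 libraries (points) by group, with group means as lines, each panel on its own axis from 0. ITGA6 is higher in all 11 LatB libraries than in the 5 control libraries, and the 12 h libraries are far apart for ITGA2 and ITGA3.

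ITGA6 is made in forms with different tails inside the cell, called alpha 6A and alpha 6B, by inclusion or skipping of an exon. The pieces that tell the forms apart in the annotation are printed here, since transcripts were assigned to a form by them (reference sequence, GRCh38, plus strand, 5′ to 3′). The alpha 6A exon lies at chr2:172501772-172501901, and the part up to its stop codon (chr2:172501772-172501879, stop codon in capitals) is shown first. It is followed by the junctions of each form, with the last 20 bases of the shared exon in lower case and the first 10 bases of the next exon in capitals. In alpha 6B that next exon starts at 172504091, beyond the skipped exon.
alpha 6A exon: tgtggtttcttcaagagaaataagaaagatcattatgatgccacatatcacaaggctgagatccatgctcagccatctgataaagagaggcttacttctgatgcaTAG
alpha 6A junction: tagtgtttatactatggaagTGTGGTTTCT
alpha 6B junction: tagtgtttatactatggaagTGTGGATTCT

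Nearly all ITGA6 reads were on ITGA6-201, an alpha 6A transcript, and ITGA6-202, an alpha 6B transcript. They differ in more than the tail exon. ITGA6-202 has 45 further bases at the end of an internal exon (chr2:172489614-172489658), printed here in capitals at the end of that exon (chr2:172489485-172489658), and both ends of the transcripts differ too. These differences are those of the annotation used here, and which of them salmon used to share the reads is not known. The deposited ITGA6-201 is 5618 bases long and the version in the annotation used here 5488 bases, so its form was read from a version 130 bases shorter.
ITGA6-202 longer exon: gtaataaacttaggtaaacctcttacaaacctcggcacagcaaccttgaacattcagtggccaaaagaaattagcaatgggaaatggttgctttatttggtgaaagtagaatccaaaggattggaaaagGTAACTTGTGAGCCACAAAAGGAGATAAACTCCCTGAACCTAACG

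The alpha 6A share of ITGA6 reads was 59.4%, 61.5% and 61.7% in control 0 h and 48.9% and 65.9% in control 24 h. With LatB it was 60.3%, 56.2% and 42.7% at 3 h, 57.1%, 57.5% and 55.4% at 6 h, 54.2% and 47.8% at 12 h, and 41.2%, 33.2% and 39.1% at 24 h. All 3 libraries of LatB 24 h were below every other library, while the other LatB libraries overlapped the controls. Over all libraries the mean share was 49.5% ± 9.13 (SD, n = 11) with LatB and 59.5% ± 6.39 (SD, n = 5) in controls, a difference of -9.95 points (two-sided exact permutation test over 4368 splits, p = 0.0469). This p was over 0.05 in 9 of the 16 cases with 1 library left out. Among these, leaving out control 24 h replicate 2 gave -8.35 points (exact permutation p = 0.12), and the difference ran from -12.6 to -8.32 points over the 16. At 24 h alone the share was 37.9% ± 4.17 against 57.4% ± 12.0, where 3 libraries against 2 cannot give a p below 0.1 (exact permutation test). The test over all libraries pooled the times, so its p and the SDs of 9.13 and 6.39 also hold differences between times. LatB 3, 6 and 12 h together differed from all controls by -5.57 points (exact permutation p = 0.131). This grouping was chosen after the shares had been seen.

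At 24 h each form was set against control 24 h on its own, which is no test of a difference between the forms. Alpha 6A was at 128 ± 13.5 CPM with LatB (n = 3) and 116 ± 28.2 CPM in control 24 h (n = 2), and alpha 6B at 209 ± 15.1 CPM and 84.2 ± 20.7 CPM. A transcript-level edgeR fit over 72192 transcripts, chosen after the shares had been seen, gave 1.39 for ITGA6-202 at 24 h (SE 0.17, edgeR adjusted p 0.000719) and 0.21 for ITGA6-201 (SE 0.17, edgeR adjusted p 0.586). At 6 h both transcripts rose, ITGA6-201 by 0.85 (edgeR adjusted p 0.00507) and ITGA6-202 by 1.08 (edgeR adjusted p 0.000805). Between LatB 6 h and 24 h ITGA6-201 fell by 0.78 (edgeR adjusted p 0.0121), and ITGA6-202 differed by 0.33 (edgeR adjusted p 0.301). At 6 h 6.95% and at 24 h 7.22% of all transcripts were called, and 4.47% between 6 h and 24 h. A test of usage within a gene (diffSpliceDGE of edgeR) was run for 5 comparisons on 53 transcripts of the 10 genes. It called 0 in each, and 32 of the 265 tests had an unadjusted p under 0.05. How many of all transcripts had such an unadjusted p was not counted. This count and the unadjusted counts below therefore have no share to be set against, and nothing is read from them. The lowest adjusted p was 0.0501, for ITGA6-206 at 6 h. ITGA6-206 held 0.278% of ITGA6 reads on average, from 0% to 0.901% between libraries. Its deposited length was 3393 bases, against 5803 bases in the annotation used here. Of all transcripts it called 0.533% at 3 h, 0.631% at 6 h, 0.515% at 12 h, 0.436% at 24 h and 0.263% between the controls. Among the 14 transcripts that held at least 5% of the reads of their gene, 2 of 70 tests had an unadjusted p under 0.05. These were the main ITGA6 transcripts at 24 h, with -0.61 for ITGA6-201 and 0.58 for ITGA6-202 relative to the gene (edgeR adjusted p 0.6 and 0.75). The limma version of the test called 0 of these 70, with 1 unadjusted p under 0.05.

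**Figure D4:**
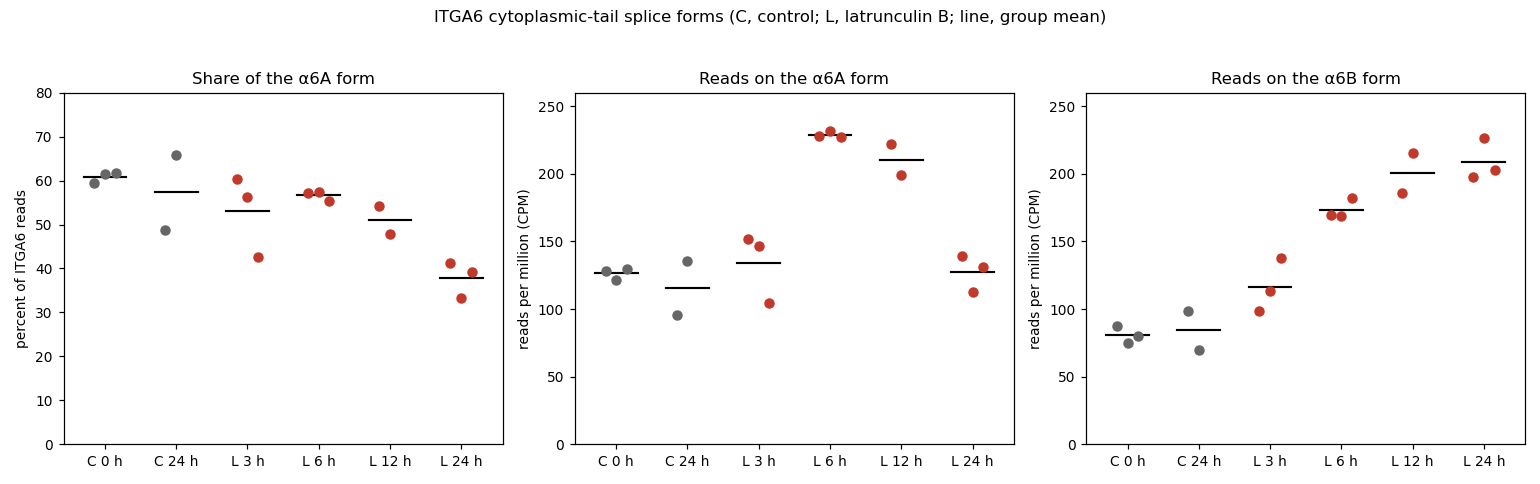
Share of ITGA6 reads on alpha 6A in percent, and CPM of alpha 6A and alpha 6B, per library (points) with group means as lines. The alpha 6A share of the 3 LatB 24 h libraries, 33.2% to 41.2%, is below that of all other libraries.

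A list of 7 splicing factors that regulate alternative exons was tested as well. At 3 h 2 rose and 1 fell, at 6 h 3 rose and 2 fell, at 12 h 2 fell and none rose, and at 24 h 2 rose and 4 fell. Of all genes tested 31.6%, 43.3%, 35.8% and 40.8% were called at these times. QKI fell by 0.48 (SE 0.12), ESRP2, a factor of epithelial exons, by 0.40 (SE 0.11), MBNL1 by 0.35 (SE 0.05) and RBFOX2 by 0.25 (SE 0.05) at 24 h (edgeR adjusted p 0.000214 to 0.0103). PTBP1, a repressor of exon inclusion, rose by 0.48 at 3 h and 0.56 at 6 h. Whether they bear on the ITGA6 shares was not tested.

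ITGA3 (chr17:50055968-50090481) encodes integrin alpha 3, the partner of beta 1 in the other main laminin receptor. Control libraries were at 64.7, 63.1 and 63.4 CPM at 0 h and at 65.2 and 67.2 CPM at 24 h. LatB libraries were at 55.8, 57.1 and 52.1 CPM at 3 h, 55.9, 51.6 and 50.5 CPM at 6 h, 40.0 and 81.4 CPM at 12 h, and 43.0, 39.6 and 38.8 CPM at 24 h. All LatB libraries but the higher 12 h library were below all 5 controls. ITGA3 fell at 24 h, by 0.71 (SE 0.19, edgeR adjusted p 0.00802), a fold of 0.611, the lowest of the 10 genes at that time. At 3 h (-0.21, interval -0.57 to 0.15) and 6 h (-0.27, interval -0.64 to 0.09) it was not called in the fit over all groups, which takes 1 spread for all of them, the 12 h libraries included. In a fit of the compared groups alone it was called lower at 3 h (-0.21, edgeR adjusted p 0.0101) and 6 h (-0.28, edgeR adjusted p 0.00157). After 24 h of LatB these laminin-binding alpha subunits had moved in opposite directions, ITGA6 up and ITGA3 down.

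ITGB4 (chr17:75721328-75757818) encodes the partner of alpha 6 in hemidesmosomes and had few reads, 186 to 356 per library. It was at 9.84, 10.6 and 10.2 CPM in control 0 h, at 11.6 and 11.1 CPM in control 24 h and at 9.97, 10.9 and 10.3 CPM at 3 h. It was at 8.75, 8.74 and 8.21 CPM at 6 h, 8.14 and 7.75 CPM at 12 h, and 7.13, 9.52 and 8.48 CPM at 24 h. From 6 h on every LatB library was below every control. ITGB4 fell by 0.25 after 6 h (SE 0.10, edgeR adjusted p 0.0453), by 0.36 after 12 h (SE 0.11, edgeR adjusted p 0.0179) and by 0.44 after 24 h (SE 0.10, edgeR adjusted p 0.00459). The 6 h call was lost on leaving out any 1 of the 6 libraries compared (-0.29 to -0.24), and with an offset for transcript length the 6 h value was 0.54, the opposite sign. The share of its reads on ITGB4-203 was 55.9% on average and varied from 0% to 87.5% between libraries. Its part in the change of sign was not tested.

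ITGA1 (chr5:52787916-52959209) encodes the collagen-binding alpha 1 subunit and differed between the controls themselves. It was at 83.5, 71.1 and 71.1 CPM at 0 h and at 45.9 and 51.6 CPM in control 24 h, without overlap. LatB libraries were at 73.5, 68.8 and 78.8 CPM at 3 h, 62.7, 67.8 and 66.5 CPM at 6 h, 45.1 and 56.0 CPM at 12 h, and 43.8, 38.1 and 34.3 CPM at 24 h. Control 24 h was lower than control 0 h by -0.63 (SE 0.11, edgeR adjusted p 0.0469), and ITGA1 was the 1 member called in that comparison, where 0.251% of all genes were. That call was lost without any 1 of the 5 control libraries (-0.71 to -0.54). The fall at 12 h against control 0 h (-0.57, SE 0.11, edgeR adjusted p 0.0018) therefore rests on the choice of control: against control 24 h the value was 0.05 (edgeR adjusted p 0.774), and at 3 h and 6 h it was 0.60 and 0.43, called higher. At 24 h ITGA1 fell by 0.33 (SE 0.11, edgeR adjusted p 0.0315) against control 24 h. This call was lost without control 24 h replicate 1 (-0.41) or replicate 2 (-0.25), or without LatB 24 h replicate 2 (-0.32) or replicate 3 (-0.25).

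Most ITGA1 reads, 88.1%, were on ITGA1-208, a transcript annotated for nonsense-mediated decay, and 5.68% on ITGA1-201. The annotated exons of ITGA1 also share 499 bases with PELO on the same strand, so reads of these genes may be split between them. Antisense genes overlap exons of ITGA1, ITGA5, ITGA6, ITGAV, ITGB1 and ITGB8, and no source says whether the counting used strand, so antisense reads cannot be told apart from theirs.

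ITGA2 (chr5:52989340-53094779) encodes the other collagen-binding subunit, alpha 2, and was at 14.5, 13.2 and 14.04 CPM in control 0 h and 11.4 and 13.03 CPM in control 24 h. With LatB it was at 8.86, 10.8 and 9.27 CPM at 3 h, 9.90, 8.40 and 9.41 CPM at 6 h, 13.4 and 25.2 CPM at 12 h, and 17.8, 15.8 and 14.03 CPM at 24 h. The libraries of 3 h and 6 h were below all controls, and those of 24 h above both libraries of control 24 h. ITGA2 fell by 0.53 (SE 0.18, edgeR adjusted p 0.0379) at 3 h and by 0.59 (SE 0.18, edgeR adjusted p 0.0176) at 6 h. At 24 h it was not called (0.38, interval -0.05 to 0.81, edgeR adjusted p 0.149), while LatB 24 h was above LatB 6 h by 0.78 (SE 0.18, edgeR adjusted p 0.00399). The 3 h call was lost in 5 of the 6 fits without 1 library (-0.64 to -0.49), all but that without LatB 3 h replicate 2. The 6 h call was lost without LatB 6 h replicate 2 (-0.55, edgeR adjusted p 0.0594). Neither was called with control 24 h as the reference, at -0.34 for 3 h (edgeR adjusted p 0.213) and -0.41 for 6 h (edgeR adjusted p 0.125).

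ITGAV (chr2:186590010-186680901) encodes integrin alpha V, which pairs with beta 1, beta 5 and beta 8. It was at 293, 267 and 279 CPM in control 0 h, at 249 and 267 CPM in control 24 h, and at 283, 279.7 and 257 CPM at 3 h of LatB. It was then at 319, 312 and 308 CPM at 6 h, 221 and 255 CPM at 12 h, and 209, 159 and 183 CPM at 24 h. The 6 h libraries were above and the 24 h libraries below all controls. At 6 h the difference was not called over all groups (0.16, interval -0.02 to 0.34), and was in a fit of the compared groups alone (0.16, edgeR adjusted p 0.0132). At 24 h ITGAV fell by 0.49 (SE 0.09, edgeR adjusted p 0.00107), and between LatB 6 h and 24 h by 0.77 (SE 0.08, edgeR adjusted p 1.62e-05).

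ITGA5 (chr12:54395261-54419266), the fibronectin receptor subunit alpha 5, was not called at any time. It ranged from 54.6 to 63.8 CPM over the controls and from 50.1 to 76.5 CPM over the LatB libraries, which overlapped at each time. The interval at 24 h was -0.14 to 0.39 on the log2 scale, so these libraries leave room for a difference anywhere within it. In a fit of the compared groups alone it was called lower at 6 h (-0.17, edgeR adjusted p 0.0487).

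ITGB5 (chr3:124761948-124901418) encodes a beta subunit that pairs with alpha V in a receptor for vitronectin. Controls were at 182, 174 and 171 CPM at 0 h and 149 and 164 CPM at 24 h. LatB libraries were at 158, 169 and 160.5 CPM at 3 h, 170.0, 165 and 157 CPM at 6 h, 118 and 156 CPM at 12 h, and 122, 105 and 109.7 CPM at 24 h. The 24 h libraries and the lower 12 h library were the 4 lowest of all. ITGB5 fell by 0.35 (SE 0.10, edgeR adjusted p 0.0119) at 12 h and by 0.48 (SE 0.10, edgeR adjusted p 0.00138) at 24 h, and between LatB 6 h and 24 h by 0.55 (SE 0.09, edgeR adjusted p 0.000274). Against control 24 h the 12 h value was -0.19 and not called (edgeR adjusted p 0.184).

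ITGB8 (chr7:20330702-20415754) encodes the partner of alpha V that binds latent TGF-beta, and against control it rose only at 3 h. It was at 78.5, 78.2 and 83.6 CPM in control 0 h and at 85.3 CPM in both libraries of control 24 h. LatB libraries were at 107, 102 and 99.0 CPM at 3 h, 93.3, 96.2 and 85.1 CPM at 6 h, 72.1 and 70.4 CPM at 12 h, and 89.8, 68.1 and 83.9 CPM at 24 h. The 3 h libraries were above all others. ITGB8 rose by 0.36 (SE 0.08, edgeR adjusted p 0.00414) at 3 h, and was not called at 6 h (0.19, edgeR adjusted p 0.0706), 12 h (-0.17, edgeR adjusted p 0.171) or 24 h (-0.08, interval -0.28 to 0.11). Of 8 genes tested for latent TGF-beta and its carriers, none was called at 3 h by edgeR, and 1 rose and 3 fell at 6 h. At 12 h 2 rose and 3 fell, and at 24 h 1 rose and 4 fell. Of all genes 31.6%, 43.3%, 35.8% and 40.8% were called at these times.

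ITGB1 (chr10:32887273-33005792), which encodes the common beta subunit, fell at 24 h in the fit over all libraries. It was at 1375, 1249 and 1265 CPM in control 0 h, 1114 and 1228 CPM in control 24 h, and 1237, 1303 and 1175 CPM at 3 h. It was at 1357, 1321 and 1372 CPM at 6 h, 1069.5 and 1378 CPM at 12 h, and 1054, 901 and 984 CPM at 24 h. The 24 h LatB libraries were the lowest of the 16. The 24 h difference was -0.26 (SE 0.10, edgeR adjusted p 0.0457), a call lost without control 24 h replicate 1 (-0.33) or replicate 2 (-0.18), or without LatB 24 h replicate 2 (-0.20) or replicate 3 (-0.26). LatB 24 h against LatB 6 h gave -0.46 (SE 0.09, edgeR adjusted p 0.000936). ITGB1 also has a pseudogene copy, so the assignment of a part of its reads is uncertain.

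The effects at 24 h and at 3 h, each against its own control, were compared in the same fit. The difference was called for 6 of the 10 genes, where 27.9% of all genes were called. ITGA2 (0.91) and ITGA6 (0.47) had the higher effect at 24 h, and ITGAV (-0.45), ITGB4 (-0.46), ITGB5 (-0.37) and ITGB8 (-0.44) the lower. Between LatB 24 h and LatB 6 h, which share no control, 6 of 10 were called beside 37.9% of all genes, with ITGA2 higher and ITGA1, ITGA6, ITGAV, ITGB1 and ITGB5 lower.

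Values at 12 h depended on which library was used. Leaving out either one left a single library at that time, so the p-values below take its spread from the other groups and assume that it varied as they did. Without LatB 12 h replicate 2, in which the mesenchyme list was higher, ITGA3 was at -0.67 (edgeR adjusted p 4.54e-05), ITGAV at -0.34 (edgeR adjusted p 0.0353), ITGB1 at -0.28 (edgeR adjusted p 0.032) and ITGB5 at -0.57 (edgeR adjusted p 0.000303). Without replicate 1, ITGA2 was at 0.85 (edgeR adjusted p 0.000403), ITGA3 at 0.35 (edgeR adjusted p 0.00186) and ITGA5 at 0.34 (edgeR adjusted p 0.0342), while ITGB5 was at -0.17 and not called. The sign of ITGA3 turned between these fits. ITGA6 was at 0.98 without replicate 2 and 0.998 without replicate 1. The part of the mesenchyme, endothelial or Schwann and neural crest markers in these values was not tested.

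Marker lists of endocrine and liver cells also differed in level between groups. The summed level of 6 endocrine genes, none of them at 0 throughout the 16 libraries, was 18.2 to 24.6 TPM in control 0 h. It was 38.5 to 45.9 TPM in control 24 h and 66.1 to 178 TPM in LatB 24 h. It was 23.3 to 35.0 TPM at LatB 3 h, 38.2 to 48.6 TPM at 6 h and 35.8 to 69.1 TPM at 12 h. Of the 6 genes 1 rose at 3 h and 5 at 6, 12 and 24 h each. Of all genes 16.8%, 22.9%, 19.1% and 21.9% rose at these times. The summed level of 3 liver markers was 43.0 to 52.8 TPM in control 0 h, 59.7 to 74.0 TPM in control 24 h and 95.2 to 157 TPM in LatB 24 h, where 1 of the 3 genes rose. The part of either list in the values of the integrin genes was not tested.

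The other genes of the integrin system were counted in lists. Of 17 other integrin subunits 12 were tested. At 24 h 2 rose and 1 fell, 3 of 12 beside 40.8% of all genes. The 1 that fell was ITGB6, the epithelial partner of alpha V, at -2.09 (SE 0.28, edgeR adjusted p 8.59e-05), after -0.96 at 6 h and -1.94 at 12 h. The 2 that rose were ITGA9 (1.10, SE 0.30) and ITGA7 (0.87, SE 0.13), the latter a further laminin-binding alpha subunit. At 3 h 1 of these 12 rose and none fell, at 6 h 1 rose and 2 fell, and at 12 h 3 rose and 4 fell, where 31.6%, 43.3% and 35.8% of all genes were called.

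Among the ligands more genes were called at 12 h and 24 h than at 3 h and 6 h. Of 31 laminin chains, collagens and other ligands tested, 2 rose and 1 fell at 3 h. At 6 h 1 rose and 2 fell, and at 12 h 7 rose and 6 fell. Of all genes 31.6%, 43.3% and 35.8% were called at these times. At 24 h 1 rose and 16 fell, where 21.9% of all genes rose and 18.8% fell, with a median of -0.46 beside 0.0081 for all genes. The laminin chains LAMA2 (-3.07, SE 0.53) and LAMA3 (-1.44, SE 0.42) were among those that fell at 24 h. The effects at 24 h and 3 h differed for 12 of the 31, with 2 higher and 10 lower at 24 h. Of all genes 27.9% were called in that comparison. LAMA1 rose by 0.30 after 3 h (SE 0.05) and by 0.24 after 6 h (SE 0.05), while THBS1, a matrix protein, fell by 1.78 at 3 h, 2.66 at 6 h and 1.41 at 24 h.

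Among adaptors of the adhesions at integrin tails, not all of which bind the tail itself, more genes fell than rose at each time. Of 33 tested, 3 rose and 12 fell at 3 h, 4 rose and 19 fell at 6 h, 2 rose and 19 fell at 12 h, and 1 rose and 17 fell at 24 h. Of all genes 16.8% rose and 14.7% fell at 3 h, and 22.9% rose and 20.4% fell at 6 h. At 12 h 19.1% rose and 16.8% fell, and at 24 h 21.9% rose and 18.8% fell. FERMT3, which encodes a kindlin, was the largest change of the list at 3 h and rose by 2.42 (SE 0.36), by 1.47 at 6 h (SE 0.36) and by 1.64 at 12 h (SE 0.39). FERMT1, which encodes another kindlin, went the other way at 3 h and fell by 0.67 (SE 0.11). DAB2, an adaptor of integrin endocytosis, fell by 0.89 (SE 0.08) at 3 h and 1.76 (SE 0.09) at 6 h. VCL, which encodes vinculin, fell by 1.43 (SE 0.11) at 12 h, and TLN2 (-1.30, SE 0.19) and ACTN4 (-1.08, SE 0.09), which encode a talin and an alpha-actinin, fell at 24 h. The median of the list was -0.16 at 3 h, -0.32 at 6 h, -0.38 at 12 h and -0.21 at 24 h.

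Of 9 partners of alpha 6 in hemidesmosomes and tetraspanin complexes, 2 rose and 1 fell at 3 h. At 6 h 4 rose and 1 fell, at 12 h 3 rose and none fell, and at 24 h 3 rose and none fell. Of all genes 31.6%, 43.3%, 35.8% and 40.8% were called at these times. DST, which encodes the hemidesmosome linker dystonin, rose with ITGA6 at 3 h (0.76, SE 0.04) and 6 h (0.95, SE 0.04), rose by 0.17 (SE 0.05, edgeR adjusted p 0.0113) at 12 h, and was lower at LatB 24 h than at LatB 6 h by -1.24. PLEC, the gene of plectin, fell by 0.45 at 3 h and 0.34 at 6 h. Of 12 matrix receptors that are not integrins, 3 rose and 6 fell at 24 h, beside the same 40.8%, among them DDR1 (-1.13, SE 0.20), a collagen receptor, and the syndecans SDC4 (-0.65, SE 0.08), SDC2 (-0.64, SE 0.08) and SDC1 (0.62, SE 0.17).

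The group means of ITGA6 were most like those of TRIM24, RGMA and MAP1B among 10437 genes, with a root mean square difference of centred log2 CPM over the 6 groups of 0.08 for each, where ITGA6 itself ranged over 1.04. For ITGA3 the nearest were RHOC (0.05), NPTXR (0.07) and PPIC (0.07), where ITGA3 ranged over 0.71. These are descriptions over 6 group means and carry no test.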

How the data were processed

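RNA of pancreatic progenitor cells was sequenced in 16 libraries, grouped by their labels. Per the labels' processing notes salmon 1.3.0 and hg38 were used, while the study's methods name STAR, so the settings behind the tables are not given in the sources used here. For each library the authors deposited estimated counts (which need not be whole) and TPM values of 177456 transcripts. A deposited table of the authors' log2 fold changes and p-values was not used, nor were its 16 columns of per-sample values.

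Transcript identifiers, without their version, were assigned to genes through GENCODE release 44 on GRCh38 (165533 matched, 151923 in the same version), and 2.92% to 3.17% of reads stayed unmatched. Estimated counts were summed per gene and rounded. edgeR 4.0.16 in R 4.3.3 fitted all 6 groups together (TMM factors 0.947 to 1.05, filterByExpr, two-sided quasi-likelihood test), with Benjamini-Hochberg adjustment over 16705 genes. Error bars and SD are over libraries. Reads were shared by salmon between similar transcripts, so values of single transcripts carry more error than gene sums.

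The alpha 6A share was tested by an exact permutation test over libraries, and usage of transcripts with diffSpliceDGE of edgeR and diffSplice of limma 3.58.1. Alternatives were DESeq2 1.42.0, other scalings, filters, controls and thresholds, a transcript length offset, limma on log2(TPM + 1) and log2(TPM + 0.1), the replicate number as a block and leaving out each library. Scripts were tested on simulated data. The members, lists and tests were chosen with earlier results of these data known. Genes outside the 10 are named where they were among the 4 largest called changes of their list. Profiles were compared among genes with a mean log2 CPM of at least 3. The replicate numbers did not pair the libraries: of 36 pairs with the same number, correlations of deviations from the group means ran from -0.241 to 0.116. The depth of 23609727 to 33515398 reads left 186 reads in the lowest member value (ITGB4).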

Additional observations from a re-analysis of the deposited data

Results flagged for a closer look

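For 6 of the 10 genes the effect of LatB differed between 24 h and 3 h by the test of the difference itself in the edgeR fit. The differences (24 h minus 3 h, log2 scale) were 0.91 for ITGA2 (SE 0.27, edgeR adjusted p 0.0224), 0.47 for ITGA6 (SE 0.06, edgeR adjusted p 0.000177), -0.45 for ITGAV (SE 0.13, edgeR adjusted p 0.0164), -0.46 for ITGB4 (SE 0.14, edgeR adjusted p 0.0267), -0.37 for ITGB5 (SE 0.13, edgeR adjusted p 0.048) and -0.44 for ITGB8 (SE 0.12, edgeR adjusted p 0.0157). ITGA2 stood at -0.53 at 3 h and 0.38 at 24 h, and ITGB8 at 0.36 and -0.08. The difference for ITGA6 kept its call in all 11 cases with 1 library left out. That for ITGA2 lost it without control 24 h replicate 1 (0.82, edgeR adjusted p 0.103), that for ITGAV without control 24 h replicate 2 (-0.40, edgeR adjusted p 0.0707), and that for ITGB8 without control 24 h replicate 1 (-0.44, edgeR adjusted p 0.0538). ITGB4 lost it in 5 of 11 cases and ITGB5 in 10 of 11. The effects at the 2 times have different control libraries, and the control of 24 h holds 2 of them.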

How the results depend on the processing

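The 7 called values of ITGA6 kept call and direction in all 130 alternatives. Over all 31 called values of the 10 genes, 452 of 579 alternatives kept the call, 121 lost it with the same sign and 6 turned the sign. Of 881 alternatives of the 49 values that were not called, 23 became called and 44 changed sign. Depth was low for ITGB4 (186 to 356 reads per library) and ITGA2 (222 to 745).

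The number of genes called of the 10 moved as follows, with the calls among all genes of the same fit in brackets. At 6 h it was 1 at an adjusted p under 0.01 (5093 of 16705) and 8 in a fit of the compared groups alone (8055 of 15542). It was 1 with limma on log2(TPM + 1) (5293 of 16705). At 12 h it was 2 at the stricter threshold (3738 of 16705) and 2 with only the compared groups (2828 of 15773). It was 1 with the length offset (4267 of 16705), log2(TPM + 1) (4056) or log2(TPM + 0.1) (3981). At 24 h it was 3 with the length offset (5097 of 16705) and on either TPM scale (4799 and 4752). For control 24 h against control 0 h it was 0 at the stricter threshold (2 of 16705) and with RLE size factors (8). It was also 0 without scaling (7), with the length offset (8), with the replicate block (6) and on either TPM scale (2 and 7). There edgeR had called ITGA1 (42 of 16705), and DESeq2 called 1 (248). For LatB 6 h against 3 h it was 2 without scaling (3700 of 16705) and 2 with a mean of at least 50 counts (3803 of 13125). It was 3 with only the compared groups (4563 of 15587). For the difference of effects it was 1 at the stricter threshold (2609 of 16705), 2 without scaling (5191) and 1 on either TPM scale (2941 and 2940). Leaving out 1 library gave 1 to 2 genes at 6 h (1 without LatB 6 h replicate 2), 0 to 0 between controls and 2 to 6 for the difference of effects (2 without control 24 h replicate 1 and 3 without control 24 h replicate 2). The calls among all genes in the fits without 1 library are not given here. The cause of these changes was not tested.

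Signs turned against the other control or both controls pooled: at 3 h for ITGA1 (0.60 and 0.28), ITGA5 (0.084 and 0.015), ITGAV (0.085 and 0.025), ITGB1 (0.081 and 0.0075) and ITGB4 (-0.13 and -0.054), at 6 h for ITGA1 (0.43 and 0.12), and against the other control alone for ITGB5 at 3 h (0.052) and 6 h (0.066), ITGA1 (0.054) and ITGB1 (0.064) at 12 h, and ITGA5 (-0.011) and ITGB8 (0.0097) at 24 h. With the length offset they turned for ITGA1 (0.032) and ITGAV (0.043) at 3 h, ITGB4 (0.54) and ITGB5 (0.012) at 6 h, ITGB4 between 3 h and 6 h (0.19) and ITGA6 between controls (0.042). On log2(TPM + 1) and log2(TPM + 0.1) they turned for ITGB1 (-0.032 and -0.032) and ITGB4 (0.28 and 0.35) at 6 h, ITGB4 between 3 h and 6 h (0.10 and 0.11), ITGA6 between controls (0.050 and 0.051) and ITGB5 in the difference of effects (0.017 and 0.017). Without scaling they turned for ITGB4 at 3 h (-0.056), ITGB1 at 6 h (-0.033) and ITGB4 between 6 h and 24 h (0.10). Omitting scaling moved the median of all genes to -0.10 at 6 h and 0.14 between 6 h and 24 h, and the share of higher calls from 53.3% to 36.1% at 3 h, 52.8% to 37.7% at 6 h, 50.1% to 73.8% between 6 h and 24 h and 52.1% to 69.0% for the difference of effects.

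Leaving out 1 library turned signs of values that were not called, within -0.099 to 0.051 for ITGA1 and -0.033 to 0.030 for ITGB4 at 3 h, -0.057 to 0.85 for ITGA2, -0.67 to 0.35 for ITGA3, -0.11 to 0.34 for ITGA5 and -0.28 to 0.086 for ITGB1 at 12 h, -0.17 to 0.026 for ITGB8 at 24 h, -0.12 to 0.029 for ITGA2 and -0.012 to 0.046 for ITGB5 between 3 h and 6 h, and -0.13 to 0.071 for ITGB4 between 6 h and 24 h.

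The difference in alpha 6A share was -9.60 points on TPM (exact permutation p = 0.0371). By time, it was -7.80 points at 3 h (p = 0.2), -4.20 at 6 h (p = 0.1), -9.89 at 12 h (p = 0.1) and -19.5 at 24 h (p = 0.1) by exact permutation tests that cannot go below 0.1. Chosen after the shares had been seen, LatB 24 h against all controls gave -21.6 points and the other times together -5.57 points (exact permutation p = 0.131). For the 24 h split no p carries weight. Its libraries were already known to lie below all controls, which fixed the exact permutation p at its smallest value, 0.0179. Leaving out 1 library gave -12.6 to -8.32 points.

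Calls with the replicate number as a block follow, although the numbers do not pair the libraries, with those among all 16705 genes in brackets. By edgeR 3 members were called at 3 h (4853), 2 at 6 h (6863), 4 at 12 h (5364) and 5 at 24 h (6005). Between 3 h and 6 h 1 was called (3242), between 6 h and 24 h 6 (5902), and for the difference of effects 5 (4107).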
